A study of Mus musculus with 6 samples.

Results

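The genes described here are 40 genes of striated muscle, out of 55491 genes in a count table of inguinal white adipose tissue (IWAT) from young mice. They encode fast, slow, developmental and cardiac isoforms of the sarcomere, the proteins that anchor it, and the calcium and fuel supply of the fibre. Members were chosen by gene symbol from values of these same libraries, because 1 library was rich in muscle RNA and because *Myh6* differed between the genotypes. Their levels by library and by genotype are therefore a description, and no test of them is offered in support. All 40 had at least 10 counts in every library, so a filter on low counts removed none.

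RNA was sequenced from whole IWAT of 3 *Ebf2*+/+ mice (WT1 to WT3) and 3 mice heterozygous for a nonsense codon, *Ebf2* p.E165X/+ (HET1 to HET3), as 1 library per mouse. All were males of 4 weeks, labelled C57BL/6J, and no special diet is given for them in the labels. Per the study's supplement, the knock-in was made by CRISPR/Cas9 in zygotes of B6SJLF1 hybrids, whose other parent strain is SJL. The founders were crossed to C57BL/6J, and the study's main methods name a C57BL/6J background. The knock-in is present in every tissue and not in fat alone. *Ebf2* encodes a transcription factor of adipocyte precursors and brown fat, and the comparison asks what a single truncated copy changes in this depot.

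Library totals ran from 106820505 counts in WT2 to 135039488 in HET3. *Ebf2*, the edited gene (chr14:67233292-67430918, GRCm38), was counted over both alleles together, so its level does not show the edit itself. Its level was 38.3, 41.3 and 37.2 CPM (counts relative to the library total, per 1e6 and with the total scaled by TMM) in WT1, WT2 and WT3. The HET libraries had 22.8, 22.9 and 21.1 CPM, with no overlap between the genotypes. The fitted log2 fold change of HET over WT was -0.81 (SE 0.076, adjusted *P* = 0.0596, edgeR's quasi-likelihood test over 32664 genes). Markers of white adipocytes, the labelled tissue, were present throughout, from *Lpl*, lipoprotein lipase, at 4046 to 6894 CPM to *Pparg*, the adipocyte receptor, at 74.9 to 169 CPM.

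A striated muscle fibre is built from sarcomeres, in which myosin heavy chains pull on actin filaments anchored at the Z-disc. Calcium released by the ryanodine receptor binds troponin and frees the actin filament, and the SERCA pump then returns the calcium to its store. Fast and slow fibres use separate genes for most of these parts, and further isoforms belong to the embryo or to the heart. White fat holds no sarcomeres of its own, and the inguinal depot lies under the skin beside muscles of the flank and thigh.

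The 40 genes together took 0.308% of all counts in WT1, 1.21% in WT2 and 0.486% in WT3. They took 0.564% in HET1, 0.145% in HET2 and 6.85% in HET3. HET3 stood above every other library, by 5.66-fold over WT2 and 47.2-fold over HET2, and the HET libraries held both the highest and the lowest share. Means were 0.669% ± 0.478 in WT and 2.52% ± 3.76 in HET (SD, n = 3 each), and the HET mean without HET3 was 0.355%. The 95% Wilson interval of such a share was narrow, 6.849% to 6.857% in HET3, and covers counting error only. In bulk tissue, more muscle fibres and more muscle RNA per fibre cannot be told apart.

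**Figure D1:**
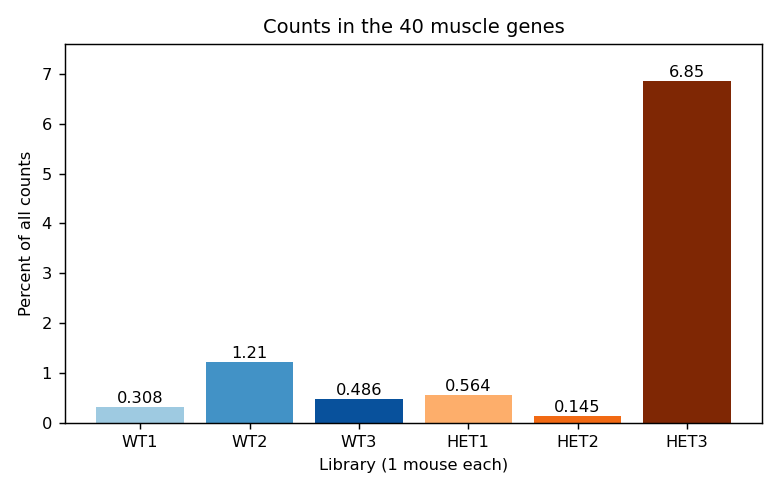
Percent of all counts that fall in the 40 muscle genes (vertical axis) in each of the 6 libraries, 1 bar and 1 mouse each. HET3 stands at 6.85%, WT2 at 1.21% and the other 4 libraries between 0.145% and 0.564%.

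The members kept nearly the same order of libraries. The highest level was in HET3 for 39 of the 40, *Tnni3* being the exception, while 21.0% of all 32664 genes tested were highest there. HET2 was lowest for 36 of 40, all but *Myh6*, *Myh8*, *Tnnt2* and *Tnni3*, against 12.4% of all genes. WT2 was second highest for 37, all but *Myh6*, *Myh8* and *Tnni3*. HET3 exceeded HET2 more than 10-fold for 38 members, all but *Tnnt2* and *Tnni3*, against 1.65% of the 27410 genes with a count in HET2. The median ratio of HET3 to HET2 was 54.5 over the members. Since that library was part of the choice of members, nothing is read from these shares.

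**Figure D2:**
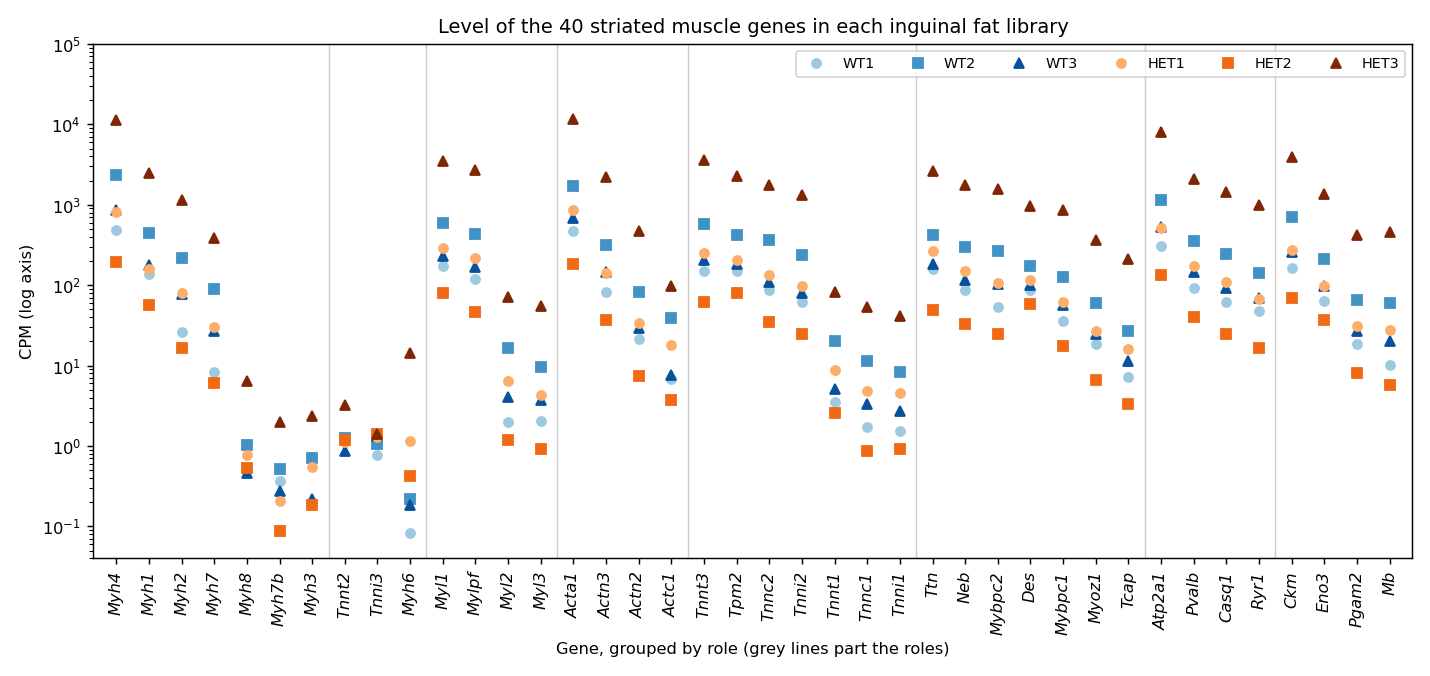
Level of each of the 40 genes in CPM (vertical log axis) in the 6 libraries, 1 point per library, with genes grouped by role along the horizontal axis. The HET3 points lie above all other points except for Tnni3, and the HET2 points lie lowest for 36 genes.

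edgeR's fit with genotype alone called no member between the genotypes. It called 3 genes in all (0.00918% of those tested, at an adjusted *P* under 0.05 and a linear fold change above 1.5), namely *Gm3375*, *Gm5503* and *Cidea*, which are named for their calls and are not members. The fitted log2 fold change of HET over WT was positive for all 40 members, from 0.37 for *Tnni3* to 5.03 for *Myh6*, with a median of 1.95 against 0.01 over all genes tested, and every member had an adjusted *P* of 0.783. At an unadjusted *P* under 0.05 there were 1557 genes and 1 member, *Myh6*. DESeq2, which gave no adjusted *P* for 2 members, called 98 of the 16078 genes that had one, of which 1 was a member, again *Myh6*. Since *Myh6* was picked from this contrast, its unadjusted *P* and its call are a description and no support. Without HET3 the fitted change was negative for 37 members, with a median of -0.90, so the sign of the change rested on that mouse for all but *Myh6*, *Tnnt2* and *Tnni3*. The size of the *Myh6* change also depended on HET3, at 2.29 without that mouse.

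The myosin heavy chains are the motors of the thick filament, and those of fast fibres led the group. *Myh4*, the chain of the fastest glycolytic (IIb) fibres, had 479, 2354 and 863 CPM in WT1, WT2 and WT3. Its level was 805, 193 and 11440 CPM in HET1, HET2 and HET3. Both extremes lay among the HET mice, and the WT range fell inside the HET range. *Myh1*, of IIx fibres, ran from 56.8 CPM in HET2 to 2459 CPM in HET3, with 138 to 450 CPM in WT. *Myh2*, of fast oxidative (IIa) fibres, ran from 16.7 to 1152 CPM in HET and from 26.4 to 218 CPM in WT. *Myh7*, the slow (type I) chain, which the heart also uses, had 8.40, 88.6 and 27.1 CPM in WT1 to WT3 and 29.8, 6.09 and 381 CPM in HET1 to HET3.

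Chains of developing muscle were rare. *Myh3*, the embryonic chain, reached 2.35 CPM in HET3 and stayed at 0.184 to 0.712 CPM elsewhere. *Myh8*, the perinatal chain, reached 6.42 CPM in HET3 against 0.460 to 1.05 CPM in the other libraries, and *Myh7b*, an ancient slow-type chain, 1.98 CPM against 0.0881 to 0.512 CPM. *Myh7b* was the single member whose HET1 and HET2 levels, 0.207 and 0.0881 CPM, both lay below all WT libraries, on 24 and 11 counts.

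The fast chains are neighbours on chromosome 11, where 8 members lie. RefSeq promoters of GRCm38.p6 (250 bases before to 50 after the gene start) were found for 34 of the 40 members, as 41 entries. They were searched on both strands for 5 motifs. The TATA box was searched as TATAAA. The E-box, the kind of site that MyoD-type factors bind, was searched as CAGCTG. The MCAT element was searched as CATTCC, and the CArG box of serum response factor and the MEF2 site by their usual patterns. A MEF2 site can contain the letters of the TATA box, so the same bases may count for both. The E-box lay in 16 of the 34 (47.1%), against 16.3% of all 32851 promoters of that length, and the TATA box in 11 (32.4%) against 13.6%. The MCAT element lay in 13 (38.2%) against 14.7%, the CArG box in 4 (11.8%) against 1.63%, and the MEF2 site in 6 (17.6%) against 3.19%. These are matches of letters and not sites shown to be bound, and counts per member run a little high beside shares per promoter where a member has several entries. By promoter entry the shares were 46.3%, 26.8%, 31.7%, 9.76% and 14.6%, in the order E-box, TATA box, MCAT element, CArG box and MEF2 site.

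*Myh4* was the only member with all 5 motifs. The 130 bases before the starts of *Myh4* (chr11:67237682-67237811, plus strand), *Myh1* (chr11:67199972-67200101, plus strand) and *Acta1* (chr8:123894776-123894905, minus strand) are shown because these genes are the leading myosins and the leading actin. All are 5′ to 3′ on the gene's strand, with motif matches in capitals.
Myh4: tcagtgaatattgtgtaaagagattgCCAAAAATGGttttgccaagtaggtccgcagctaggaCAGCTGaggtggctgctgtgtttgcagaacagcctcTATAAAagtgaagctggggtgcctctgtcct
Myh1: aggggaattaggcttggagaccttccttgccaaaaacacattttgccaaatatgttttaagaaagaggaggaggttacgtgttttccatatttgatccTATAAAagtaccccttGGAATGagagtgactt
Acta1: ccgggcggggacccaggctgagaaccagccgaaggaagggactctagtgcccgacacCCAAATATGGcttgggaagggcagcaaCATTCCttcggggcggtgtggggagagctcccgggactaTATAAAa
The capitals of *Myh4* are, in order, a CArG box, an E-box and a TATA box, the last lying 31 bases before the gene start. *Myh1* has a TATA box 32 bases before its start and an MCAT element on the other strand. *Acta1* has a CArG box, an MCAT element and a TATA box, the last 7 bases before the start in this annotation.

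For fibre type, each isoform was taken as a percent of its own family within a library, which sets aside the level of the family but not every way in which the amount of muscle RNA could act on a share. *Myh4* made up 73.5%, 75.7% and 75.5% of the counts of the adult skeletal chains (*Myh1*, *Myh2*, *Myh4* and *Myh7*) in WT1 to WT3. It made up 75.1%, 70.8% and 74.1% in HET1 to HET3. The means were 74.9% ± 1.23 in WT and 73.3% ± 2.26 in HET (SD, n = 3 each), the genotypes overlapped, and HET3, with the most muscle RNA, lay inside the WT range. *Myh1* took 17.0% ± 3.64 in WT and 17.2% ± 3.24 in HET, *Myh2* 5.92% ± 1.63 and 6.99% ± 0.755, and *Myh7* 2.17% ± 0.799 and 2.50% ± 0.274.

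**Figure D3:**
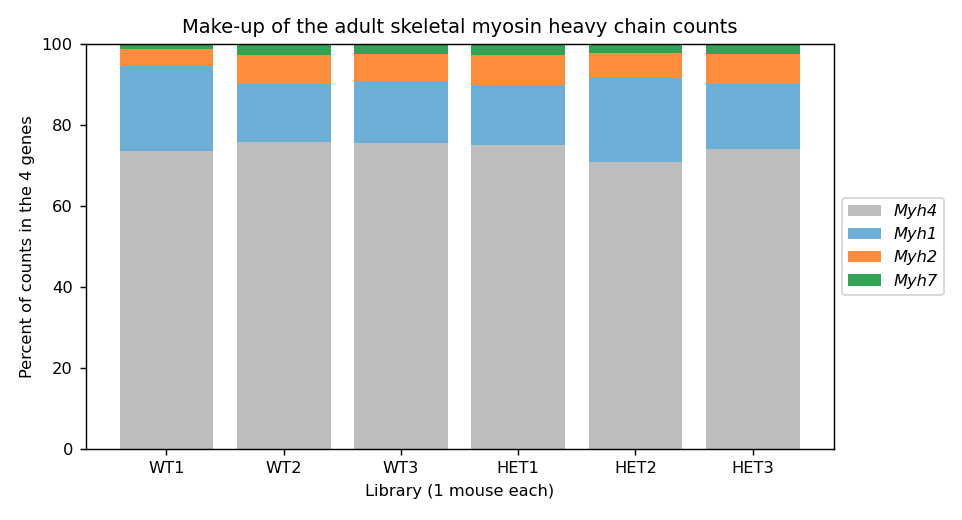
Stacked bars of the percent of adult skeletal myosin heavy chain counts (vertical axis) that come from Myh4, Myh1, Myh2 and Myh7 in each library. Myh4 takes 70.8% to 75.7% in all 6 libraries and Myh7 1.29% to 2.85%.

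WT1 and HET2, the 2 libraries with the least muscle RNA, had the highest *Myh1* shares, 21.2% and 20.9%, against 14.5% to 15.9% in the other 4. They also had the lowest shares of *Myh4*, *Myh2* and *Myh7*. The 4 shares are parts of 1 whole in each library, so these are not separate observations. For *Myh7* the share in HET2, 2.24%, lay close to that in WT3, 2.37%. The same libraries had the highest developmental share, *Myh3* and *Myh8* together taking 0.191% and 0.264% of the skeletal chains against 0.0558% to 0.123%. Whether a low amount of muscle RNA has a part in these shares was not tested.

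Slow isoforms of the troponins were likewise a small part of their families. *Tnnt1*, slow troponin T, which ties the complex to tropomyosin, took 2.72% ± 0.615 of *Tnnt1* and *Tnnt3* counts in WT and 3.22% ± 0.893 in HET. *Tnni1*, slow troponin I, the inhibitory subunit, took 3.01% ± 0.518 of *Tnni1* and *Tnni2* counts in WT and 3.67% ± 0.697 in HET. *Tnnc1*, the calcium-binding troponin C of slow and cardiac muscle, took 2.63% ± 0.627 of *Tnnc1* and *Tnnc2* counts in WT and 2.93% ± 0.518 in HET. *Actc1*, cardiac actin, which fetal skeletal muscle also makes, took 1.57% ± 0.581 of the counts of *Actc1* and *Acta1* in WT and 1.62% ± 0.684 in HET. For all 9 shares (4 adult chains, the developmental pair, 3 troponins and actin) the genotypes overlapped, with two-sided exact permutation *P* values from 0.3 to 1.0 and adjusted values from 0.9 to 1.0. The smallest *P* that 3 mice against 3 allow is 0.1, so these tests could not pass 0.05 whatever the values.

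The actin and α-actinin genes were each highest in HET3, next highest in WT2 and lowest in HET2. *Acta1*, skeletal actin, had 476, 1713 and 692 CPM in WT1 to WT3 and 871, 182 and 11530 CPM in HET1 to HET3. On the scale of CPM per kilobase of merged exons *Acta1* was the most abundant member in every library, with levels from 118.2 in HET2 to 7506 in HET3. The next place was held by *Mylpf*, the fast regulatory light chain, in 4 libraries and by *Tnnc2*, fast troponin C, in WT2 and HET2. This scale assumes reads along the whole transcript, and the sources disagree on whether the libraries were of 3′ ends. *Actn3*, the α-actinin of fast fibres, had 81.2 to 320 CPM in WT and 37.4 to 2201 CPM in HET. *Actn2*, the α-actinin of all fibres and the heart, had 21.4 to 82.6 CPM in WT and 7.43 to 474 CPM in HET. *Actc1* had 96.7 CPM in HET3 against 38.9 CPM in WT2, a ratio of 2.49 where *Acta1* had 6.73.

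Fast troponins had 150 to 570 CPM in WT for *Tnnt3*, 62.4 to 240 CPM for *Tnni2* and 87.0 to 361 CPM for *Tnnc2*. HET3 had 3588, 1328 and 1757 CPM of these 3 genes, and HET2 61.2, 24.4 and 34.9 CPM. Slow *Tnnt1*, *Tnni1* and *Tnnc1* ran lower, with 83.2, 41.3 and 53.5 CPM in HET3 and at most 20.2, 8.24 and 11.4 CPM elsewhere. *Tpm2*, a tropomyosin that smooth muscle shares, had 149 to 425 CPM in WT and 80.6 to 2251 CPM in HET. Its HET3 to HET2 ratio of 27.9 was the lowest of the 7 genes of this role, in which all fitted changes were positive (median log2 1.85) and all turned negative without HET3 (median -0.96).

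Light chains stabilize and tune the myosin neck. *Myl1* and *Mylpf*, of fast fibres, had 175 to 589 and 121 to 436 CPM in WT, and 3534 and 2707 CPM in HET3. *Myl2* and *Myl3*, the light chains of slow fibres and of the cardiac ventricle, had 1.97 to 16.5 and 2.01 to 9.69 CPM in WT. HET3 had 70.5 and 54.7 CPM of the slow pair. All 4 were lowest in HET2, at 78.9, 45.8, 1.18 and 0.905 CPM in the order just given.

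The giant and anchoring proteins showed the same span. *Ttn*, titin, the spring that runs from Z-disc to M-line, had 158, 423 and 185 CPM in WT1 to WT3 and 263, 49.4 and 2636 CPM in HET1 to HET3. *Neb*, nebulin, which lines the thin filament, had 86.4 to 302 CPM in WT and 32.4 to 1774 CPM in HET. *Mybpc1* and *Mybpc2*, the slow and fast myosin-binding proteins C, reached 863 and 1568 CPM in HET3 against 17.3 and 24.5 CPM in HET2. *Myoz1* and *Tcap*, small proteins of the Z-disc, reached 367 and 212 CPM in HET3 against 6.67 and 3.30 CPM in HET2. *Des*, desmin, an intermediate filament that smooth muscle of vessels also makes, spanned less, from 58.8 CPM in HET2 to 969 CPM in HET3, a ratio of 16.5 where the 7 genes of the role reached 64.4.

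Calcium handling genes are those of release, storage, buffering and return. *Atp2a1*, the fast fibre calcium pump (SERCA1), had 308, 1159 and 529 CPM in WT1 to WT3 and 510, 132 and 7980 CPM in HET1 to HET3. *Ryr1*, the release channel, had 48.1 to 141 CPM in WT and 16.6 to 1002 CPM in HET. *Casq1*, which stores calcium, and *Pvalb*, the calcium buffer parvalbumin of fast fibres, reached 1425 and 2064 CPM in HET3 against 24.9 and 40.4 CPM in HET2. The 4 genes had HET3 to HET2 ratios of 51.1 to 60.5.

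Among the fuel genes, *Ckm*, muscle creatine kinase, had 162, 707 and 258 CPM in WT1 to WT3 and 276, 69.1 and 3940 CPM in HET1 to HET3. *Eno3* and *Pgam2*, muscle enzymes of glycolysis, had 64.2 to 213 and 18.4 to 65.4 CPM in WT, and 1343 and 415 CPM in HET3. *Mb*, myoglobin, the oxygen store of oxidative fibres, had 5.81 CPM in HET2 and 459 CPM in HET3, a ratio of 79.0, the highest HET3 to HET2 ratio among the 40 members.

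The last role holds 3 isoforms best known from the heart. *Tnni3*, cardiac troponin I, had 0.766, 1.07 and 1.35 CPM in WT1 to WT3 and 1.29, 1.43 and 1.39 CPM in HET1 to HET3. It was highest in HET2, the library with the least muscle RNA, and the genotypes overlapped. *Tnnt2*, cardiac troponin T, had 0.863 to 1.24 CPM in WT, 1.11 and 1.17 CPM in HET1 and HET2, and 3.24 CPM in HET3, a ratio of 2.77 over HET2.

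*Myh6*, the fast chain of the heart's atria and of the adult mouse ventricle, was higher in every HET library than in every WT library. Its counts were 10, 23 and 23 in WT1, WT2 and WT3. The counts were 135, 53 and 1838 in HET1, HET2 and HET3. HET2, where the 40 genes took 0.145% of all counts, had 53 *Myh6* counts, and WT2, where they took 1.21%, had 23. In CPM the WT libraries had 0.0832, 0.218 and 0.186, and the HET libraries 1.17, 0.424 and 14.4, with no overlap. *Myh6* was the only member without overlap between the genotypes, 1 of 40 (2.5%), where 5.09% of all genes tested were higher in every HET library than in every WT library.

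The genotypes were also apart when *Myh6* was set against its neighbour *Myh7*. *Myh6* made up 0.981%, 0.246% and 0.680% of the counts of the pair in WT1 to WT3 (95% Wilson intervals 0.534% to 1.80%, 0.164% to 0.369% and 0.453% to 1.02%). It made up 3.77%, 6.52% and 3.63% in HET1 to HET3 (3.19% to 4.44%, 5.02% to 8.43% and 3.47% to 3.796%). The lowest HET share was 3.70 times the highest WT share, and the means were 0.636% ± 0.370 and 4.64% ± 1.63 (SD, n = 3 each). Relative to all muscle counts, *Myh6* had 27.3 ± 10.3 CPM in WT and 242 ± 60.5 CPM in HET (here per counts of the 40 genes). The share of *Myh7* among the adult skeletal chains overlapped, at 1.29% to 2.85% in WT and 2.24% to 2.78% in HET. Since *Myh6* was picked from this contrast, no test of these shares is given.

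**Figure D4:**
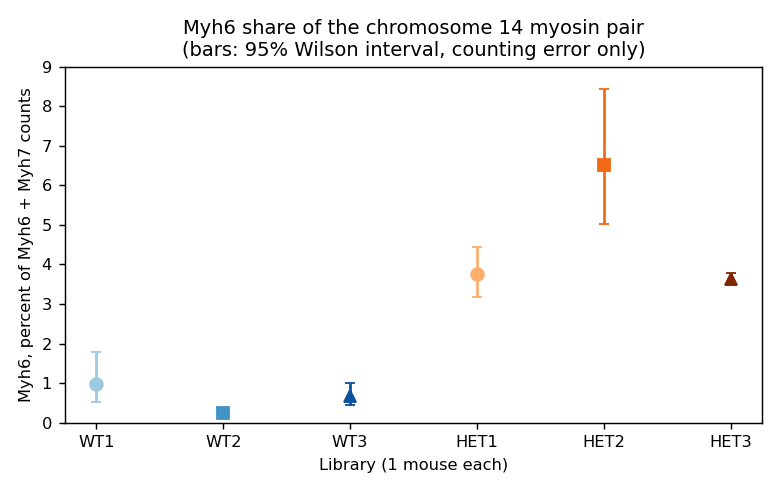
Myh6 as a percent of the summed Myh6 and Myh7 counts (vertical axis) in each library, with 95% Wilson intervals for counting error. The WT points lie at 0.246% to 0.981% and the HET points at 3.63% to 6.52%.

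Both genes lie on the minus strand of chromosome 14, the chromosome of *Ebf2*. *Myh6* is at chr14:54941921-54966927 and *Myh7* at chr14:54970684-54994626 (GRCm38), 3756 bases apart and 12.3 and 12.2 Mb from *Ebf2*. The other 2 members on this chromosome, *Tnnc1* (chr14:31208312-31211729) and *Myoz1* (chr14:20649107-20656540), overlapped between the genotypes. *Tnnc1* had 1.70 to 11.4 CPM in WT and 0.857 to 53.5 CPM in HET. Chromosome 14 of the HET mice carries the edited allele and whatever lies near it from the hybrid zygotes, so the edit and linked sequence cannot be told apart in these libraries.

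Reads can be shared between this pair. The coding sequences of *Myh6* and *Myh7* (GENCODE M21) were 91.8% identical over 5802 aligned bases, more than any other of the 21 pairs among the 7 heavy chains compared (all but *Myh7b*), and held an identical run of 245 bases. Of the 100-base windows of the *Myh6* transcript, 11.4% occurred exactly in *Myh7*. *Myh1* shared 7.59% with *Myh2*, and *Myh4* shared 2.25% with *Myh1*. With 50-base windows, *Myh6* shared 22.6% with *Myh7* and *Myh1* shared 19.7% with *Myh2*. The last ungapped 120 coding bases show the likeness, at chr14:54941996-54942466 (exons 38 and 39 of 39) for *Myh6* and chr14:54970805-54971490 (exons 40 and 41 of 41) for *Myh7*, 5′ to 3′ with the 4 differing bases in capitals.
Myh6: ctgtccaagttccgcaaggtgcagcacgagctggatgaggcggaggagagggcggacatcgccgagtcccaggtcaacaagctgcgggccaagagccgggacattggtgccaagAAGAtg
Myh7: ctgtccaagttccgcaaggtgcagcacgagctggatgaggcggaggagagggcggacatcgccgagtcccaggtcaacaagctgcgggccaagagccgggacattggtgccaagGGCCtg
Expected counts divide such reads between the genes by estimation, and the deposited table does not show how many were shared. How uncertain the split was in any library was not measured, and whether it has a part in the *Myh6* shares was not tested. *Mhrt*, a transcript antisense to *Myh7*, had 5 counts over all libraries.

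Heart markers other than *Myh6* were at most 7.95 CPM in any library. Of 15 on the list, which include 3 members (*Myh6*, *Tnnt2* and *Tnni3*), 5 of the 13 with counts were highest in HET3 and 1 exceeded HET2 more than 10-fold there, *Myh6* itself. *Sbk2* had 7.95 CPM in HET3 against 1.08 to 3.41 CPM in the others, and *Mybpc3*, *Myl4*, *Myl7* and *Ryr2* stand in the muscle lists as well. The summed level of the list was 14.6, 14.9 and 15.6 CPM in WT1 to WT3, and 13.1, 13.2 and 36.7 CPM in HET1 to HET3. *Tbx5*, with the highest mean of the list over the 6 libraries, was lower in every HET library, at 4.05 to 4.60 CPM in WT and 1.79 to 3.09 CPM in HET. It was the highest of the list in each WT library but in no HET library. *Myl4* was above it in HET1, HET2 and HET3, at 2.895, 3.027 and 3.864 CPM. *Myl7*, an atrial light chain, and *Hand2* were higher in every HET library than in every WT library, as *Myh6* was, but on 0 to 3 counts in WT and 7 in each HET library for *Myl7*, and 0 to 5 and 6 to 9 counts for *Hand2*. *Nppb* and *Nkx2-5* had no counts in any library, *Nppa*, the atrial natriuretic peptide, had at most 0.0190 CPM, and *Mybpc3*, cardiac myosin-binding protein C, had 0.0664 to 0.280 CPM.

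Further muscle genes outside the 40 were higher in HET3 as well. Of 34 sarcomere and Z-disc genes, 32 were highest in HET3, 28 exceeded HET2 more than 10-fold, and the summed level was 907, 2065 and 1041 CPM in WT against 1199, 680 and 10700 CPM in HET. *Tpm1*, with the highest mean of the list over the 6 libraries, had 3903 CPM in HET3 against 166 to 702 CPM elsewhere. *Tpm3*, which nonmuscle cells also use, had 405 against 299 to 342 CPM, and was above *Tpm1* in WT1 and HET2. Of 30 genes of excitation-contraction coupling, 29 were highest in HET3 and 24 exceeded HET2 more than 10-fold. *Cacna1s*, the voltage sensor of the fibre, had 376 CPM in HET3 and 5.86 CPM in HET2. *Atp2a2*, the SERCA pump of slow muscle that most cells share, had 392 CPM in HET3 against 243 to 285 CPM in the others.

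Genes of fuel use in muscle, some of them shared with other cells, were more mixed, and 14 of 19 had a positive fitted change. Of 19 measured, 16 were highest in HET3 and 8 exceeded HET2 more than 10-fold, with *Pygm*, muscle glycogen phosphorylase, at 1573 CPM in HET3 and 31.6 CPM in HET2. *Aldoa*, with the highest mean of the list over the 6 libraries, had 4121 CPM in HET3 against 843 to 1691 CPM in the others. *Gpd1* was above *Aldoa* in WT1, WT3 and HET2, at 2031, 1333 and 989.7 CPM against 1691, 1120 and 843.1 CPM. Of 14 myogenic factors and satellite cell genes, 13 were highest in HET3. *Myf6*, a factor of mature fibres, had 25.0 CPM there against 0.312 to 3.26 CPM, *Myog* 8.29 against 0.192 to 0.892 CPM, and *Pax7*, of satellite cells, 1.81 against 0.0916 to 0.199 CPM. *Itga7*, an integrin of muscle, was the exception, with 134.5 CPM in HET3 and 129 to 157 CPM in the others. None of the 4 lists had a gene called in either direction by edgeR's fit with genotype alone.

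Markers of other tissues gave further differences between libraries. All 9 white adipocyte genes were lower in HET3 than in HET2, with a median ratio of 0.682, and their sum was 13590 CPM in HET3 against 19800 to 23190 CPM in the other libraries. Of 11 smooth muscle genes, which include *Des*, 8 were highest in HET3, with HET3 to HET2 ratios of 0.856 for *Myh11* to 4.35 for *Synpo2*, apart from *Des*. *Acta2*, smooth muscle actin, had 265.5 CPM in HET3 against 113 to 152 CPM in the others. Of 6 tendon genes, 5 were highest in HET3, but only 2 exceeded HET2 more than 10-fold. *Fmod*, with the highest mean of the list over the 6 libraries, had 48.1 CPM in HET3 against 21.3 to 27.8 CPM in the others. *Thbs4* had 80.0 CPM in HET3 against 4.08 to 10.2 CPM. *Comp*, the exception, had 1.91 CPM in HET3 and 2.19 CPM in HET2. The summed level of 8 skin genes was 239.1, 10.97 and 113.5 CPM in WT1 to WT3 and 98.24, 7.999 and 10.62 CPM in HET1 to HET3, so the sum was lowest in HET2, with the least muscle RNA, and nearly as low in HET3 and WT2, with the most. Schwann cell genes summed to 602 to 758 CPM, and B cell genes to 365 CPM in WT1 and 581 to 689 CPM in the other libraries. The part of any of these tissues in the muscle levels was not tested.

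Of 8 brown fat genes, 1 had an adjusted *P* under 0.05 in edgeR with all 6 libraries and 4 without HET3, and all 8 fitted changes were negative in both fits. *Cpt1b*, *Cox7a1* and *Cox8b* are also genes of muscle. *Cpt1b*, the muscle-type carnitine palmitoyltransferase that brown fat also uses, had 29.2, 46.9 and 42.5 CPM in WT1 to WT3. It had 8.16 and 4.92 CPM in HET1 and HET2, below every WT library, and 71.6 CPM in HET3, above every WT library. *Cox7a1*, a cytochrome oxidase subunit of muscle and brown fat, gave 12.5, 19.0 and 13.8 CPM in WT, 4.14 and 2.46 CPM in HET1 and HET2, and 21.7 CPM in HET3. With all 6 libraries the fitted log2 fold changes were -0.48 (SE 0.885, adjusted *P* = 0.901) for *Cpt1b* and -0.68 (SE 0.721, adjusted *P* = 0.792) for *Cox7a1*. Without HET3 they were -2.60 (SE 0.272, adjusted *P* = 0.0469) and -2.19 (SE 0.277, adjusted *P* = 0.0997, edgeR). *Cox8b*, another cytochrome oxidase subunit of both tissues, had 31.45 to 48.94 CPM in WT, 13.59 and 17.7 CPM in HET1 and HET2, and 32.84 CPM in HET3. Its change was -0.81 (adjusted *P* = 0.783) with all libraries and -1.26 (adjusted *P* = 0.226, edgeR) without HET3. *Cidea* and *Ucp1*, genes known from brown fat, were low in all 3 HET mice, at 7.97 to 13.2 and 0.259 to 0.617 CPM against 82.4 to 106 and 10.9 to 33.0 CPM in WT.

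When the mean log2 CPM of the 34 sarcomere and Z-disc genes entered the fit as a covariate, an alternative chosen after the data were seen, the fitted changes of 38 of 40 members lay between -0.5 and 0.5. The exceptions were *Myh7b* at -0.74 and *Myh6* at 2.98, given as a description since *Myh6* was picked from this contrast. The covariate ranked the 6 libraries in the same order as the summed share of the members. Member changes near 0 were therefore largely built into this fit, and nothing is read from them. That fit called 17 genes, of which 1 was a member, *Myh6*, a call that is likewise a description. Of the 8 brown fat genes, 5 had an adjusted *P* under 0.05 in it, and *Cox8b* did not (-1.0, adjusted *P* = 0.265). *Cpt1b* and *Cox7a1* were among the 17, at -1.94 (SE 0.212, adjusted *P* = 0.0353) and -1.69 (SE 0.135, adjusted *P* = 0.00855). The covariate stood at 2.89 in HET3 and -1.75 in HET2 as a deviation from the mean of the 6 libraries, both of them HET mice.

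**Figure D5:**
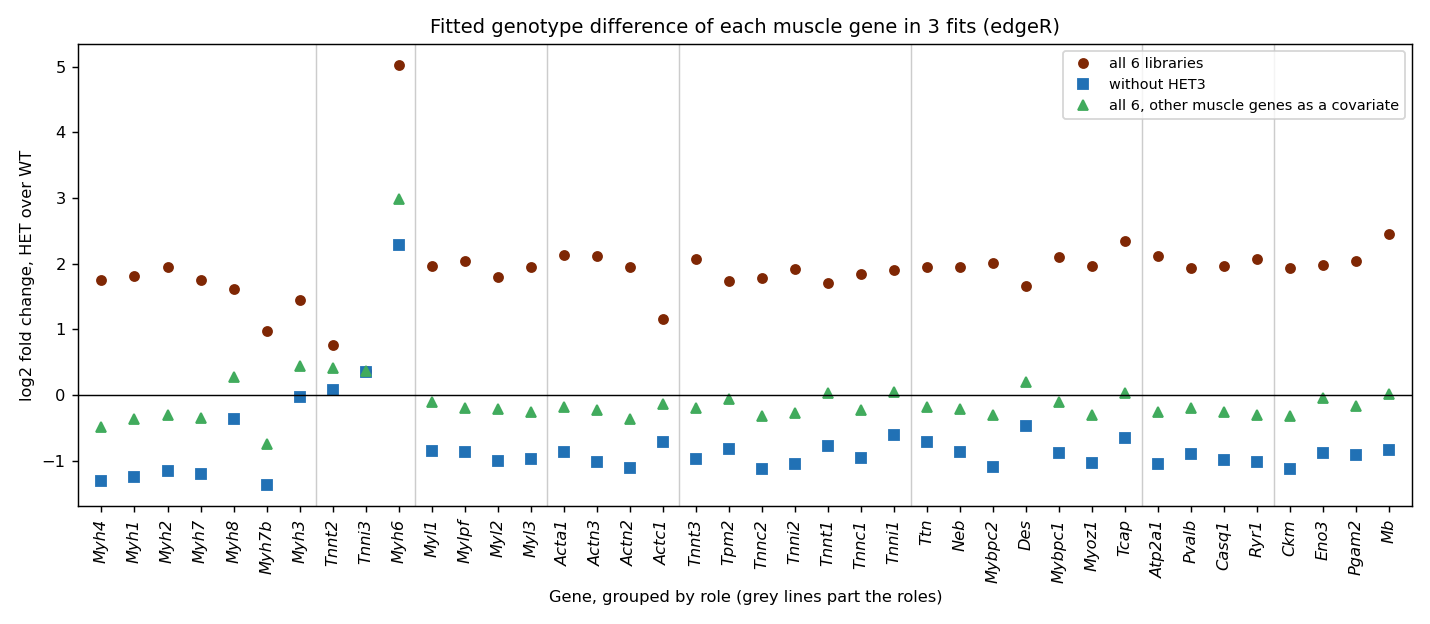
Fitted log2 fold change of HET over WT (vertical axis) for each of the 40 genes, by role, with all 6 libraries (circles), without HET3 (squares) and with all 6 and the covariate of other muscle genes (triangles). All circles are above 0, 37 squares are below 0, and Myh6 stays above 2 in all 3 fits.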

How the data were processed

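Per the labels, RNA was extracted with QIAshredder and RNeasy and libraries were made with an NEB kit, whereas the study's supplement names QuantSeq 3′ libraries and an ENSEMBL annotation. The submitters' processing notes name cutadapt 4.8, STAR 2.7.8a, RSEM 1.3.3, and GRCm38. The authors deposited expected counts (estimated fragments per gene, not scaled for library size), all of them whole numbers. Columns were matched to mice by library name.

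The 32664 genes that had any count were tested with edgeR 4.0.16 (R 4.3.3) by quasi-likelihood, with TMM factors and genotype alone in the model, and *P* values were adjusted after Benjamini and Hochberg. Calls needed an adjusted *P* under 0.05 and a linear fold change above 1.5. CPM used TMM-scaled totals. DESeq2 1.42.0, limma 3.58.1 (voom), other scalings and filters, a replicate block, and leaving out each mouse were alternatives. Scripts were tested on simulated data. Shares were compared in Python 3.11.15 with scipy 1.17.1 by exact permutation over 10 splits.

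Members and lists were chosen with earlier results of these data known. All 40 members are accounted for by role, and up to 4 genes per other list were to be named, the most abundant first. Named after their values were seen were *Cacna1s*, *Myog*, *Pax7*, *Pparg*, *Cox7a1*, *Ucp1*, *Nppa*, *Myl7*, *Hand2*, *Mybpc3*, *Gm3375*, and *Gm5503*. Exons were merged from GENCODE M21, in which 55227 of the 55491 identifiers were found. Replicate numbers name no litter. The *P* values measure the spread between these mice and treat them as independent, which the labels cannot show.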

Additional observations from a re-analysis of the deposited data

How the results depend on the processing

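edgeR called 3 genes and 0 members. DESeq2 called 98 genes and 1 member, and the covariate fit, chosen after the data were seen, 17 and 1. The member was *Myh6* in both, which was picked from this contrast, so neither call is support. Leaving out 1 mouse gave 1 to 11 genes, 1 without WT2 and 11 without HET3, and 0 members each time. limma-voom, DESeq2's size factors, members left out of library sizes, both filters, and no threshold on fold change gave 2 to 4 genes and 0 members. The median log2 fold change of the members ran from 1.60 to 2.76 without another mouse, was -0.90 without HET3, 0.57 with limma-voom, 1.93 to 1.95 with the other scalings, filters, and DESeq2, and -0.20 with the covariate. No cause for the smaller medians was tested. The replicate numbers do not pair the mice (correlations of same-numbered deviations 0.153, -0.278, and -0.162 over 18905 genes). With the replicate block, 2 genes were called, 1 of them in common with the fit without it, 0 members were called and the median was 0.65. A block cannot change the differences of the 9 shares in this balanced design.

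Differences of the shares (HET minus WT, percentage points) changed sign when 1 mouse was left out for *Myh1* (-1.68 to 2.24), *Myh7* (-0.114 to 0.665), *Myh3* with *Myh8* (-0.0121 to 0.0916), *Tnnc1* (-0.0673 to 0.558), and *Actc1* (-0.190 to 0.445), and for *Actc1* also as a log2 ratio (-0.0024). Those of *Myh4*, *Myh2*, *Tnnt1*, and *Tnni1* kept their sign under every alternative. *Myh6* was the 1 member without overlap; leaving out a mouse cannot end this and can only add members, which it did for *Tnni3* without WT3 or HET1 and, lower, for *Myh7b* without HET3. The count was 1 with the other scalings too (total counts without TMM factors were added after the data were seen). A filter, a test, or a block could not change it. With 3 mice per genotype and totals of at least 106820505 counts, the number of mice limits precision. Counting error is added for *Myh6*, *Myh3*, *Myh7b*, and *Myh8*, which had as few as 10, 23, 11, and 57 counts in a library.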

Other observations

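The 10 genes outside the members with the highest ratio of HET3 to the highest other library, among genes with at least 100 counts there, were *Gm3411*, *Rtraf-ps*, *Upk3b*, *Igkv9-123*, *Lrrc14b*, *Upk1b*, *Msln*, *Ighv2-9*, *Wt1* and *Mss51*, with ratios of 12.2 to 37.7. *Lrrc14b* and *Mss51* are genes of striated muscle, and *Mss51* had 82.6 CPM in HET3 against 1.16 to 6.77 CPM elsewhere. *Upk3b*, *Upk1b*, *Msln* and *Wt1* are genes known from mesothelium, the lining of body cavities. *Upk3b* had 14.3 CPM in HET3 against 0 to 0.674 CPM in the other libraries, *Msln*, mesothelin, 7.39 against 0.0832 to 0.408 CPM, *Upk1b* 3.44 against 0.0167 to 0.173 CPM and *Wt1* 1.39 against 0.00807 to 0.112 CPM. These 4 were second highest in WT2 or HET1. They were grouped after their values were seen.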
